A study of Mus musculus with 74 samples.

Results

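The step described here is the passage of XY gonads of the inbred strain C57BL/6J (B6) from E11.6 to E11.8, stages that lie 4.8 h apart. Its members are the 6 arrays that the labels place in this strain, sex and pair of stages, 3 at E11.6 and 3 at E11.8, of 74 arrays in all. The 6 B6 XX arrays of the same stages were used to separate changes of the XY gonad from changes of both sexes. The series profiled transcript abundance in XX and XY gonads of B6 and 129S1/SvImJ (129S1) embryos at 6 stages from E11.0 to E12.0, with 24 groups in all. Every embryo of these groups was wild type, with no transgene, deletion or treatment, and was staged by its tail somites. Each array held RNA of 1 pair of gonads from 1 embryo, dissected away from the mesonephroi, and the embryos of a group came from more than 1 litter, so the spread between arrays includes that between embryos.

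The gonad forms as a bipotential primordium in both sexes. In XY embryos the Y-linked gene Sry switches on Sox9 in the supporting cells, which then become Sertoli cells and send out signals such as Fgf9, Amh and Dhh that direct the other cells toward a testis. In XX embryos the supporting cells take the granulosa route, with Wnt4, Rspo1 and Fst among the genes that act there. B6 is known as a strain in which this switch in XY gonads is easily disturbed.

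Values are log2 intensities as deposited, so a difference of 1 is a doubling, and they rank arrays for a given probe but not probes against each other. The test was limma on all 74 arrays, with p-values adjusted by Benjamini-Hochberg over the 12848 probes kept as bright enough, and a probe was called where the adjusted p was under 0.05. These probes stood for 9003 named genes, and the median standard error of a step was 0.14. With 3 arrays a group the number of arrays limits the precision, and an exact permutation test of 3 against 3 cannot give a p below 0.1. Xist, the RNA that coats the inactive X, lay between 10.3 and 11.0 in the 6 B6 XX arrays and between 7.19 and 7.56 in the 6 XY arrays, and the Y-linked Eif2s3y lay between 8.60 and 9.53 in XY and between 6.83 and 7.17 in XX, so the sexes did not overlap in either. Of the markers of the early gonad, Wt1 lay between 13.0 and 13.3 in the 6 XY arrays, Lhx9 between 8.95 and 9.99, Gata4 between 8.27 and 8.85 and Nr5a1 between 7.995 and 8.58, and Emx2 was not among the kept probes. Replicates of the XY groups correlated at 0.976 to 0.992 at E11.6 and at 0.983 to 0.986 at E11.8. Those of the XX groups correlated at 0.973 to 0.987 at E11.6 and at 0.985 to 0.989 at E11.8. Replicate 3 of XY E11.6 and replicate 1 of XX E11.6 stood apart. On the main axis of variation within groups, which held 34.6% of that variation and ran from -21.3 to 21.2 over all arrays, the XY array lay at 17.6 against -10.9 and -6.65 for the other XY arrays of E11.6 and -6.10, 11.0 and -4.90 for those of E11.8. The XX array lay at -16.3 against 4.015 and 12.3 for the other XX arrays of E11.6, and the XX arrays of E11.8 lay between -1.393 and 1.498. Without that XX array the test of the XY step minus the XX step had 14 probes above 0 in place of 19 and 1 below 0 in place of 2.

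Between E11.6 and E11.8 many more transcripts rose than fell in B6 XY gonads, led by Dhh, Cst9, Aard and Mmd2. A total of 61 probes rose, which is 0.475% of those tested, and they stood for 54 named genes, with 2 probes unnamed. Only 6 probes fell, 0.0467% of those tested, from 5 genes. The risen probes changed by 0.40 to 2.07 on the log2 scale with a median of 0.78, and the same 61 probes had a median of 0.00 in the XX step, with a range of -0.35 to 0.36. At an unadjusted p under 0.05 the XY step held 420 probes upward and 246 downward, and the median over all kept probes was -0.00. In 60 of the 61 risen probes every E11.8 array lay above every E11.6 array, which the choice of these probes by this step makes likely, so nothing is read from it beside the 5.73% of all kept probes.

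The promoters of 4 risen genes are shown because they bear on the largest rises (Dhh and Cst9) and on secreted growth factors (Gdnf and Fgf9). The windows are those of RefSeq on build GRCm38.p6 and run from 250 bases before to 50 bases after the annotated start, 5′ to 3′ on the strand of the gene. They are chr15:98898491-98898790 on the minus strand for Dhh, chr2:148834897-148835196 on the plus strand for Cst9, chr15:7809798-7810097 on the plus strand for Gdnf and chr14:58072436-58072735 on the plus strand for Fgf9. Capitals mark a match, on either strand, to the SOX-type letters ACAATG or ACAAAG, the NR5A1-type letters AGGTCA or the GATA-type letters AGATAA or TGATAA.
Dhh: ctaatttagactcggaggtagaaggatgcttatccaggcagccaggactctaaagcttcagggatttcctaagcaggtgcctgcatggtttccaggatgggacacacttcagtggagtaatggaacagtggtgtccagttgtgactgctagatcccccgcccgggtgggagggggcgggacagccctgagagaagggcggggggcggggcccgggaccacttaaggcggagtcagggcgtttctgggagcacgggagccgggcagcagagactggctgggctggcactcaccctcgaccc
Cst9: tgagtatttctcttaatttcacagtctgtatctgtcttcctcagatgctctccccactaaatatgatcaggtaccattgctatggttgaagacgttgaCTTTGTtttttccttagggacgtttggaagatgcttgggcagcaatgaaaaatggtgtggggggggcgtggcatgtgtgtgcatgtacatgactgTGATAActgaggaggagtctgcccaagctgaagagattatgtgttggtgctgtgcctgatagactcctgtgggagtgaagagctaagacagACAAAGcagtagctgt
Gdnf: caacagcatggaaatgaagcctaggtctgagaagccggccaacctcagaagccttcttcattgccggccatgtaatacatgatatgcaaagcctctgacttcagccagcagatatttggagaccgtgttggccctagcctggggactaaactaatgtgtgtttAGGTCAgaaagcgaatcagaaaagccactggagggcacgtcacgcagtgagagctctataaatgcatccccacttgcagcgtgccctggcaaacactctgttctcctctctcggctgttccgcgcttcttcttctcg
Fgf9: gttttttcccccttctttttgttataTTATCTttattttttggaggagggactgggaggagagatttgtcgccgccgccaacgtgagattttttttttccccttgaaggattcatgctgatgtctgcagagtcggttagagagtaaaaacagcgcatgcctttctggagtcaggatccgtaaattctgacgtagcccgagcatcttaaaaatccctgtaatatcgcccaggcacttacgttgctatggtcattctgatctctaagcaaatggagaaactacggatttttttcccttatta
The Dhh window held none of these letters. The Cst9 window held CTTTGT at -152 from the start, which is ACAAAG on the other strand, TGATAA at -57 and ACAAAG at 34. The Gdnf window held AGGTCA at -87, and the Fgf9 window held TTATCT, the other strand of AGATAA, at -224. Of the 54 named genes with a risen probe 42 had a window. Where a gene had more than 1 window, as Gdnf with 2, only the first was read. The SOX-type letters were in 6 of these 42 (14.3%) against 28.8% of 27025 genes with a window, the NR5A1-type letters in 4 (9.52%) against 16.04%, and the GATA-type letters in 5 (11.9%) against 19.0%. The 27025 genes were not limited to those measured here, so these shares are not like for like. A match is a description of the letters and not of a bound site.

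Among the secreted signals of Sertoli cells, Dhh, the desert hedgehog ligand that instructs the fetal steroid-producing and peritubular cells, rose most of all probes. Dhh was at 7.78, 7.54 and 8.55 in the 3 XY arrays of E11.6 and at 10.02, 9.73 and 10.32 in those of E11.8. The groups did not overlap, and replicate 3 of E11.6, the XY array that stood apart, was the highest of its group. The step was 2.07 with a standard error of 0.22 (limma, adjusted p = 2.5e-09). No fold is given because replicates 1 and 2 of E11.6 were near the floor of the array. At E11.6 the difference between XY and XX was 0.65 and was not called (limma, adjusted p = 0.645). In XX gonads Dhh lay between 7.15 and 7.39 in all 6 arrays. In whole gonads more cells that carry a transcript and more of it in each cell cannot be told apart, which holds for every value given here.

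Amh, the hormone that makes the Müllerian ducts regress, came up from near the floor of the array. It was at 7.20, 7.12 and 7.36 at E11.6 and at 8.08, 7.81 and 8.67 at E11.8. The XY groups did not overlap, and the E11.6 values lay among those of the 6 XX arrays, 6.98 to 7.34, apart from the array at 7.36. The step was 0.96 with a standard error of 0.20 (limma, adjusted p = 0.0032), with no fold given because the E11.6 level was near the floor, and without replicate 3 of E11.8 the adjusted p was 0.259. Fgf9, the growth factor that sustains Sox9, was at 8.03, 8.10 and 8.27 at E11.6 and at 8.89, 8.84 and 8.81 at E11.8, and its rise of 0.71 (limma, adjusted p = 5.5e-04) was called without any 1 of the 6 arrays. Gdnf, a ligand of the Ret receptor that later sustains the stem cells of the testis, was at 7.44, 7.43 and 7.80 and then at 8.60, 8.43 and 8.74. Its groups did not overlap and the rise was 1.03 (limma, adjusted p = 8.8e-05), also from near the floor.

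Cst9, also called testatin, a secreted relative of the cystatin protease inhibitors, rose next after Dhh. It was at 9.77, 9.64 and 10.50 at E11.6, and at E11.8 it was at 11.50 and 11.49 in replicates 1 and 2 and higher still in replicate 3, with a mean of 11.597, a step of 1.63 (limma, adjusted p = 6.2e-04). All 3 E11.8 arrays lay above the E11.6 arrays, of which replicate 3 was again the highest. Cbln4, a secreted protein of the cerebellin family, was at 8.65, 8.77 and 9.32 and then at 9.91, 10.03 and 10.49, a step of 1.23 (limma, adjusted p = 4.9e-06). Adamts16, a secreted metalloproteinase, went from 8.18, 8.37 and 8.38 to 9.46, 9.12 and 9.74, a step of 1.13 (limma, adjusted p = 7.1e-06). For both, the lowest E11.8 array lay above the highest E11.6 array.

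Genes for membrane and intracellular proteins rose as well. Mmd2, a multipass membrane protein, was at 8.85, 8.93 and 9.55 at E11.6 and at 10.54, 10.19 and 10.86 at E11.8, a step of 1.42 (limma, adjusted p = 4.9e-06). Tesc, the calcium-binding protein tescalcin, was at 7.74, 7.62 and 7.96 and then at 9.13, 8.63 and 9.13, a step of 1.19 (limma, adjusted p = 3.3e-08). Neither pair of groups overlapped. Aard, a small protein rich in alanine and arginine, was at 10.64, 10.91 and 11.77 and then at 12.83, 12.27 and 12.93, a step of 1.57 (limma, adjusted p = 6.2e-04). The remaining members of the 12 largest rises were Cited4, a co-activator that binds CBP and p300, at 1.16, Chst1, a carbohydrate sulfotransferase, at 1.11, and Islr2 and Gldn, membrane proteins best known from neurons and Schwann cells, at 1.06 each. The calls of Dhh, Cst9, Aard, Mmd2, Cbln4, Tesc, Adamts16, Chst1, Islr2, Gldn and Gdnf held with each of the 6 arrays left out, whereas the adjusted p of Cited4 was 0.069 without replicate 1 of E11.6.

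**Figure D1:**
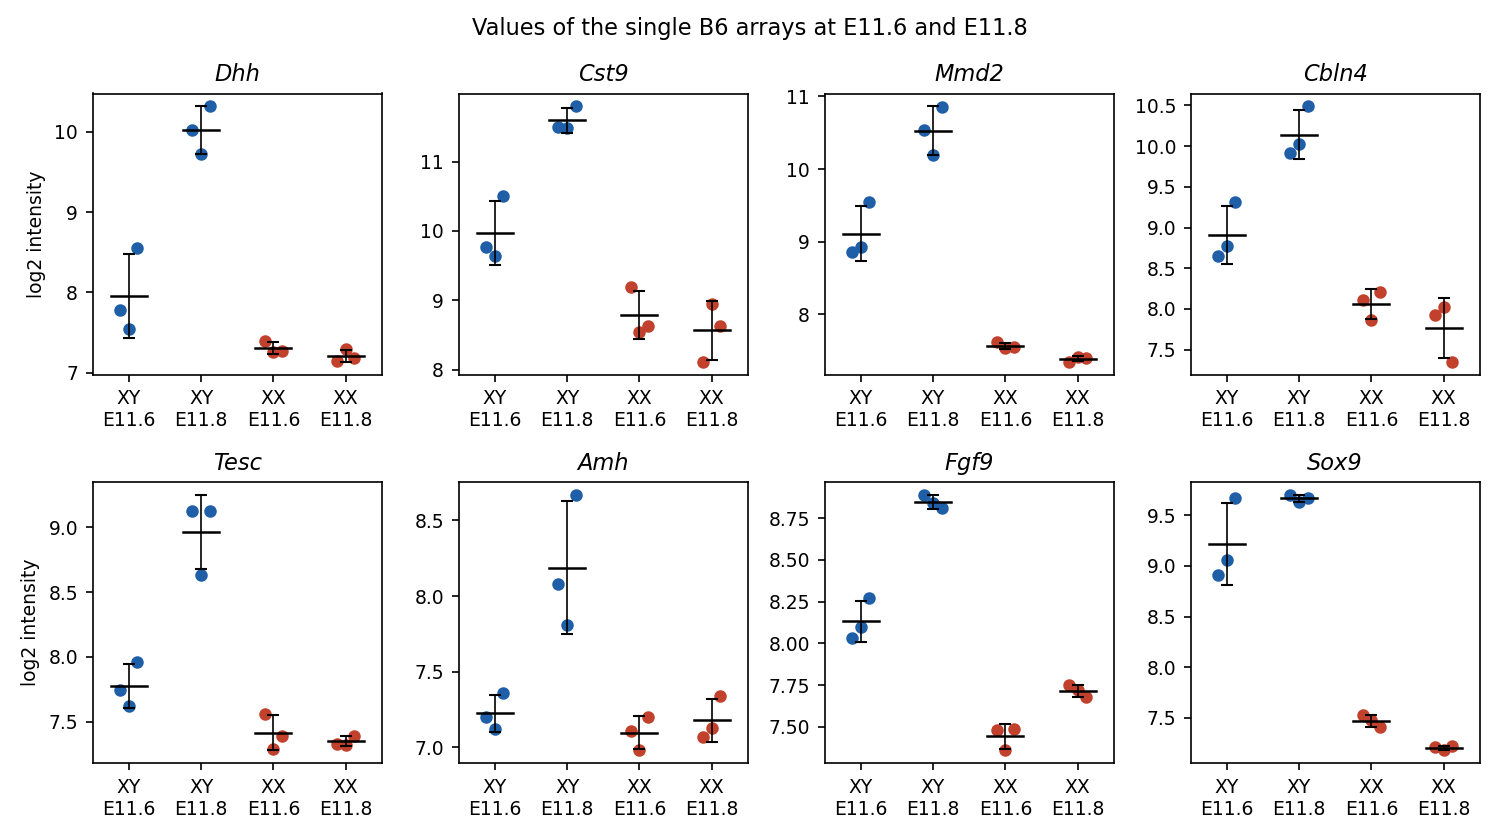
Log2 intensity (y axis) of 8 genes in single B6 arrays, XY in blue and XX in red, at E11.6 and E11.8, with the mean (bar) and SD (error bar) of 3 arrays. Dhh rose by 2.07 in XY, Sox9 stood at 9.67 in the highest E11.6 and in 1 E11.8 array, and the XX values of Dhh, Mmd2, Tesc and Amh were at most 7.61.

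Sox9, the transcription factor that sets off the Sertoli program, was not called. It was at 8.91, 9.06 and 9.67 at E11.6 and at 9.70, 9.63 and 9.67 at E11.8, so that the groups overlapped through replicate 3 of E11.6. The difference was 0.46 with a standard error of 0.20 (limma, adjusted p = 0.846), and in the step before it, from E11.4 to E11.6, it was 0.90 (limma, adjusted p = 0.208). The 6 XX arrays lay between 7.18 and 7.53, below all 6 XY arrays. Ptgds, the prostaglandin D synthase of Sertoli cells, was at 7.29, 7.76 and 7.29 and then at 8.21, 7.90 and 8.0, a difference of 0.59 (limma, adjusted p = 0.359). Lmo4, a LIM-domain cofactor, differed by 0.58 (limma, adjusted p = 0.249), Lefty2, an antagonist of Nodal, by 0.46, and Nr5a1, the steroidogenic factor present from the early gonad on, by -0.07 and 0.02 in its 2 probes.

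Counted over a list of 68 genes of Sertoli cells and the male pathway, of which 53 were measured, 18 rose and none fell, while 46 lay above 0. The list holds genes that the study itself named from these arrays, so its direction is not independent evidence. Its median was 0.51 in the XY step and 0.01 in the XX step, against 0.00 over all 9003 named genes, of which 51 rose, 4 fell and 50.8% lay above 0. The mean level of the list lay between 9.01 and 9.15 in the XY arrays of E11.6 and between 9.46 and 9.78 in those of E11.8, and between 8.64 and 8.69 in the 6 XX arrays. Among the members that did not pass the test were Cbln1 at 0.81, Defb19, a beta-defensin, at 0.78 and Pdgfa, a growth factor, at 0.73, and the lowest was Inha, the inhibin alpha subunit, at -0.34. A further gene of the list, Tpd52l1, rose in a dimmer probe only.

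Other rises included genes of 1 family and genes read by more than 1 probe. Gstm6 (0.91 and 0.87 in 2 probes), Gstm2 (0.80 and 0.78) and Gstm1 (0.63) encode glutathione S-transferases of the mu class, and in the annotation of GRCm38.p6 they lie on chromosome 3 with 2 genes between Gstm6 and Gstm2 and none between Gstm2 and Gstm1. The sequences of this family are close, so a probe may read more than 1 member. The brightest Gstm2 probe was at 13.20, 13.30 and 13.44 at E11.6 and at 14.14, 13.89 and 14.26 at E11.8, with no overlap. Both probes of Vdr, the vitamin D receptor, rose by 0.47 and 0.40, both probes of Rcan1, a regulator of calcineurin, by 0.73 and 0.56, and both of Mapk13, a p38 kinase, by 0.94 and 0.71. Cdo1, which oxidises cysteine, rose by 0.91, Slc6a8, the creatine transporter, by 0.68, and Espn, which bundles actin, by 0.98. Sema5a, a guidance molecule, rose by 0.69 in a probe, while its brighter probe, at 0.74, was not called (limma, adjusted p = 0.089). Mef2c, a MADS-box factor, rose by 0.70, and Rhox8, an X-linked homeobox gene of Sertoli cells, by 0.48. Grasp, a scaffold protein at an adjusted p of 0.0466, was the last inside the threshold, and Trim47 at 0.051 was the first named gene beyond it (limma). Of the called probes of this paragraph, those of Cdo1, 1 of Gstm6 and the brighter of Rcan1 were called with each of the 6 arrays left out, and every other one lost its call without at least 1 array. The Vdr probe at 0.40 was called in 0 of these 6 fits, and those of Mef2c and Grasp in 1 each. The called probes of Gstm1, Rhox8 and Sema5a and the Mapk13 probe at 0.71 were called in 2 each. The genes of this paragraph other than Cdo1, Slc6a8, Espn and Rcan1 were picked after their values had been seen.

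Lists of growth factor feedback and matrix genes held a few calls each. Those of Fgf9, Etv4, Col18a1, Fbln2 and Col9a2 are also among the rises of the Sertoli and male list, so they are not further rises. Of 16 genes that answer or carry FGF signals 10 were measured, 2 rose (Fgf9 and Etv4), 9 lay above 0, and the median was 0.27 in XY and -0.02 in XX. Over all 9003 named genes 51 rose and 50.8% lay above 0 in XY, with a median of 0.00. Etv4, an ETS factor that follows FGF signalling, was at 8.15, 8.26 and 8.28 at E11.6 and at 8.81, 8.82 and 9.65 at E11.8, a rise of 0.86 (limma, adjusted p = 0.0038) that had an adjusted p of 0.405 without replicate 3 of E11.8 and of 0.050 without replicate 1 of E11.6. Its relative Etv5 differed by 0.33 in XY and 0.41 in XX (limma, adjusted p = 1 in XY). Of 27 genes of cartilage-type and basement membrane matrix 19 were measured and 3 rose, again beside 51 of 9003: Col18a1, a basement membrane collagen, by 0.82, Fbln2, which binds basement membranes, by 0.90, and Col9a2, a collagen of cartilage, by 0.68. The call of Col18a1 was lost without replicate 3 of E11.8 (limma, adjusted p = 0.067), that of Fbln2 without the same array (0.12) or replicate 1 or 2 of E11.6 (0.103 and 0.061), and that of Col9a2 without replicate 1 of E11.6 (0.296) or replicate 1 or 3 of E11.8 (0.099 and 0.29). The median of this list was 0.09 in XY and 0.22 in XX, with 16 and 14 genes above 0. Of 14 measured feedback genes of the Wnt pathway only Nkd2, which binds Dishevelled and restrains Wnt signals, rose, and the median was 0.05. Nkd2 went from 7.46, 7.52 and 7.72, near the floor, to 8.32, 8.29 and 8.39, a step of 0.77 (limma, adjusted p = 3.0e-05). Of 10 hedgehog pathway genes 2 were measured, the receptor Ptch1 at 0.15 and Smo at -0.17, and neither was called.

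**Figure D2:**
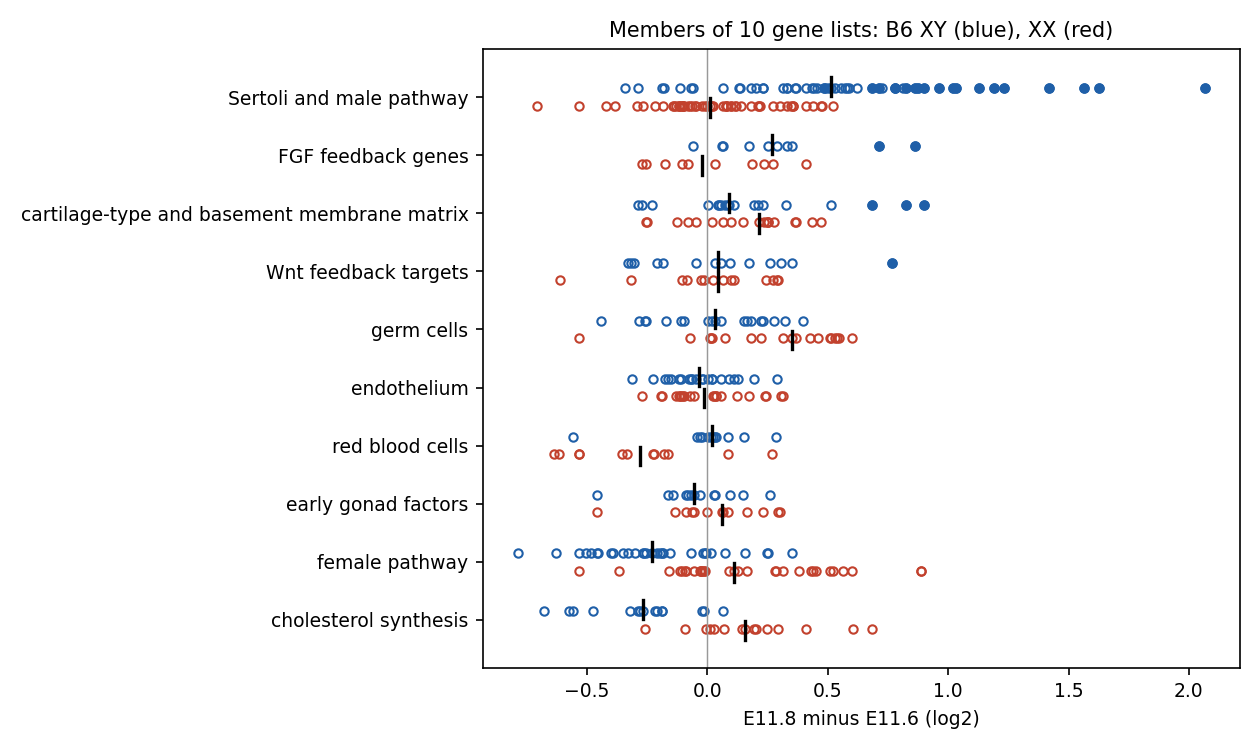
Difference of E11.8 minus E11.6 on the log2 scale (x axis) for each measured gene of 10 lists (y axis), in B6 XY (blue) and B6 XX (red), with filled points for called genes and black bars for medians. The list of Sertoli and male genes has its XY median at 0.51, and the lists of germ cells, endothelium and red blood cells have no called gene in either sex.

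The 6 probes that fell came from few loci. In the XX step the same probes had a median of -0.24, with a range of -0.37 to 0.08. None of them was called in the test of the XY step minus the XX step, so a fall particular to XY was not shown. Il15, an interleukin, was at 10.22, 9.66 and 9.70 in XY at E11.6 and at 9.04, 9.27 and 8.97 at E11.8. It fell by 0.77 (limma, adjusted p = 0.0142), with no overlap, as in 641 of the 12848 kept probes downward. In XX it lay between 9.86 and 10.38 at both stages. In 129S1 XY gonads the same probe lay near the floor, with means between 7.25 and 7.35 at all 6 stages. AW551984, a gene named for an expressed sequence, was at 10.72, 10.70 and 10.15 and then at 9.30, 9.59 and 8.98 by one of its probes (-1.23, limma, adjusted p = 0.0030), and its other called probe differed by -1.24. Olfr960 and Olfr961, olfactory receptor genes, fell by 0.75 and 0.71. In the annotation of GRCm38.p6 these genes lie together on chromosome 9, with 1 gene between AW551984 and Olfr960 and none between Olfr960 and Olfr961, and receptor genes of this family are alike enough that their probes may share signal.

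Asns, asparagine synthetase, fell by 0.66 (limma, adjusted p = 0.0099) in a probe at 11.09, 11.06 and 10.77 and then at 10.57, 10.19 and 10.20, whereas its brightest probe, at -0.53, had an adjusted p of 0.373. None of the 6 falls was called in every fit that left out 1 array. Without replicate 1 of E11.6 or without replicate 3 of E11.8 no probe was called as fallen. The calls of Il15 and Olfr961 were also lost without replicate 1 of E11.8 (limma, adjusted p = 0.095 and 0.072), and that of Asns without replicate 2 of E11.6 or of E11.8 (0.0995 and 0.0805). At E12.0, in arrays that took no part in the step, Il15 differed between B6 XY and XX by -1.17 (limma, adjusted p = 3.0e-06) and Asns by -0.86 (limma, adjusted p = 2.9e-05). The E12.0 differences of the other fallen probes are not given here. Over all 6 fallen probes the median at E12.0 relative to E11.0 was -0.98 in B6 XY and -0.50 in B6 XX.

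The female pathway did not yield a called change in XY. Of 39 genes listed for it 31 were measured, none was called, 25 lay below 0, 4 had an unadjusted p under 0.05 downward and 1 upward, and the median was -0.23 in XY and 0.11 in XX. The female list also holds genes that the study itself named from these arrays, so its direction is not independent evidence. Gng13, at -0.19 in XY, is counted both in this list and in that of Sertoli cells and the male pathway. Over all 9003 named genes 4431 lay below 0 in XY, and 163 had an unadjusted p under 0.05 downward and 350 upward. Wnt4, the ligand that drives ovarian fate, was at 10.86, 10.82 and 10.21 in XY at E11.6 and at 10.38, 10.17 and 9.89 at E11.8, whereas the XX arrays were at 11.54, 11.30 and 10.92 and then at 11.90, 12.35 and 12.17. The groups overlapped in XY. The difference was -0.48 in XY and 0.89 in XX, neither called (limma, adjusted p = 1 and 0.36). Fst, follistatin, differed by -0.46 in XY and 0.89 in XX, and the difference between the sexes was -1.34 (limma, adjusted p = 0.096). Msx1, a homeobox gene, was at 10.99, 10.82 and 10.26 and then at 9.91, 10.05 and 9.76 in XY. The difference was -0.79 (limma, adjusted p = 0.063) with no overlap, as in 641 of the 12848 kept probes downward. Rspo1, which amplifies Wnt signals, differed by -0.50, the Wnt target Axin2 by -0.21 and Irx3, a homeobox gene of the ovary, by 0.25.

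Markers of other cells in the gonad held no call in XY. The medians were 0.03 over 19 germ cell genes, -0.03 over 22 endothelial genes, 0.02 over 12 red blood cell genes, -0.09 over 16 macrophage and leukocyte genes and 0.12 over 9 genes of mesonephric tubules and duct, and a single gene, of germ cells, had an unadjusted p under 0.05. The mean level of the mesonephric list lay between 7.87 and 7.98 in the 6 XY arrays, and of the macrophage list between 7.98 and 8.19. That of the red blood cell list lay between 10.1 and 10.8 at both stages. The germ cell list lay between 8.65 and 9.25 in XY and between 8.396 and 9.49 in XX, where its median step was 0.35. The part of these cells in the changes above was not tested.

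Other processes of the gonad also gave no call by the brightest probe of each gene. The medians in XY were -0.06 over 13 early gonad factors, -0.03 over 24 genes of the interstitium and coelomic epithelium, -0.06 over 3 of steroidogenesis, 0.04 over 15 of Nodal, activin and BMP signalling, 0.02 over 12 of the Notch pathway and -0.09 over 12 of retinoic acid. They were -0.02 over 21 genes of cell division, 0.00 over 25 of hypoxia and glycolysis, 0.07 over 20 immediate early and heat shock genes, 0.08 over 16 of the amino acid stress response, which holds Asns, -0.03 over 22 Hox genes, 0.02 over 3 Y-linked genes and -0.13 over 7 genes that escape X inactivation. Across these 13 lists 7 genes were below and 6 above 0 at an unadjusted p under 0.05.

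The XX gonads of the same stages served to ask which changes were particular to XY. In XX no probe was called (0% of those tested), the smallest adjusted p was 0.134 (limma), and 1419 probes had an unadjusted p under 0.05. Array quality weights would call 18 XX probes upward and 11 downward. A direct test of the XY step minus the XX step called 19 probes above 0, 0.148% of those tested, and 2 below 0, 0.0156%, with 1216 probes at an unadjusted p under 0.05. Of the 61 risen probes 17 were among the 19, so for the other 44 a difference between the sexes was not shown. Dhh differed most, by 2.17 (2.07 in XY and -0.10 in XX) (limma, adjusted p = 2.9e-05), followed by Cst9 at 1.85, Mmd2 at 1.60, Cbln4 and Cbln1 at 1.52 each, Chst1 at 1.46, Tesc at 1.26, Espn at 1.23, Gdnf at 1.13 and Gldn at 1.12.

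**Figure D3:**
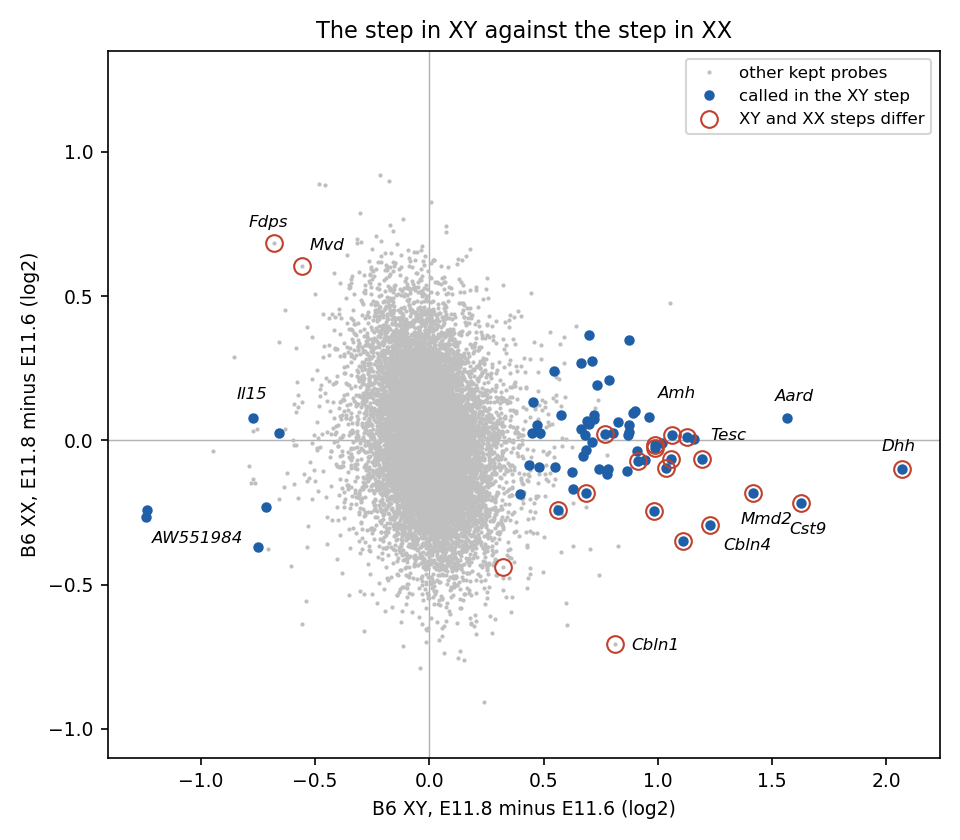
Each kept probe by its E11.8 minus E11.6 difference in B6 XY (x axis, log2) and in B6 XX (y axis, log2), with probes called in the XY step as blue points and those whose steps differ between the sexes ringed in red. The 61 risen probes spread along the x axis from 0.40 to 2.07 while their XX differences stay between -0.35 and 0.36.

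Cbln1, a secreted cerebellin, and Atn1, a co-repressor, passed the test of the difference through both sexes. Cbln1 was at 10.47, 10.43 and 10.38 in XY at E11.6 and at 11.19, 10.89 and 11.64 at E11.8, and at 9.68, 9.25 and 9.78 and then 9.11, 8.55 and 8.93 in XX. The step was 0.81 in XY and -0.71 in XX, neither of which was called alone. Atn1 differed by 0.32 in XY and -0.44 in XX, so that the difference was 0.76. The sex difference of Dhh, Mmd2, Chst1, Cbln4, Tesc and Diras2, a small GTPase, was called without any 1 of the 12 B6 arrays, and that of the other 15 of the 21 probes was not: without replicate 1 of XY E11.6 or replicate 3 of XY E11.8 the count above 0 was 7, without replicate 2 of XY E11.6 it was 8, without replicate 2 of XX E11.6 it was 9, without replicate 2 or 3 of XX E11.8 it was 11 or 12, and without replicate 3 of XY E11.6 it was 29.

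The probes below 0 in that test both belonged to cholesterol synthesis. Fdps, farnesyl diphosphate synthase, was at 12.37, 12.10 and 11.86 in XY at E11.6 and at 11.34, 11.56 and 11.38 at E11.8, and in XX at 11.41, 11.42 and 11.24 and then at 11.88, 12.19 and 12.05. The stages did not overlap in either sex. Of all 12848 kept probes this held for 641 downward in XY and for 2434 in XX in either direction, so nothing is read from it. The step was -0.68 in XY and 0.68 in XX, and the difference was -1.36 (limma, adjusted p = 0.030). Mvd, mevalonate diphosphate decarboxylase, was at 9.40, 9.35 and 9.05 and then at 8.75, 8.61 and 8.77 in XY, and at 8.92, 8.88 and 8.54 and then at 9.21, 9.58 and 9.35 in XX, a difference of -1.16 (limma, adjusted p = 0.018). Of 20 cholesterol synthesis genes 15 were measured, 14 lay below 0 in XY with a median of -0.27, and 12 lay above 0 in XX with a median of 0.16. None of them was called in either sex alone, 6 had an unadjusted p under 0.05 downward in XY, with Cyp51, lanosterol demethylase, nearest at -0.58 (limma, adjusted p = 0.060). In the 129S1 XY step the median of the list was -0.03. Neither Fdps nor Mvd was called without replicate 1 or 2 of XY E11.6, without replicate 3 of XY E11.8, or without replicate 3 of XX E11.6 or 2 of XX E11.8. Fdps alone was also lost without replicate 1 or 2 of XX E11.6 (limma, adjusted p = 0.054 and 0.068), without replicate 3 of XX E11.8 (0.084) and without replicate 1 of XY E11.8 (0.076), so that it was called in 3 of the 12 fits.

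Placed in the time course, the step was the only one of 3 successive B6 XY steps with a call. From E11.4 to E11.6 no probe was called (0%, smallest adjusted p 0.208 in limma, 429 probes at an unadjusted p under 0.05), and from E11.8 to E12.0 none was called either (0%, smallest adjusted p 0.398, 184 probes). These steps share the E11.6 or the E11.8 arrays with the step described here, and a direct test of the step against the one before it and against the one after it called no probe, with 346 and 207 probes at an unadjusted p under 0.05, so the steps were not shown to differ for any single probe. The medians of the 61 risen probes, which were chosen for their rise in the middle step, were 0.20, 0.78 and 0.09 over the 3 steps. From E11.0 to E12.0, in arrays apart from those of the step, their median was 1.36. Relative to E11.0 their median in B6 XY was 0.04 at E11.2, 0.19 at E11.4, 0.40 at E11.6, 1.22 at E11.8 and 1.36 at E12.0, and in B6 XX it was -0.00 at E11.8.

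**Figure D4:**
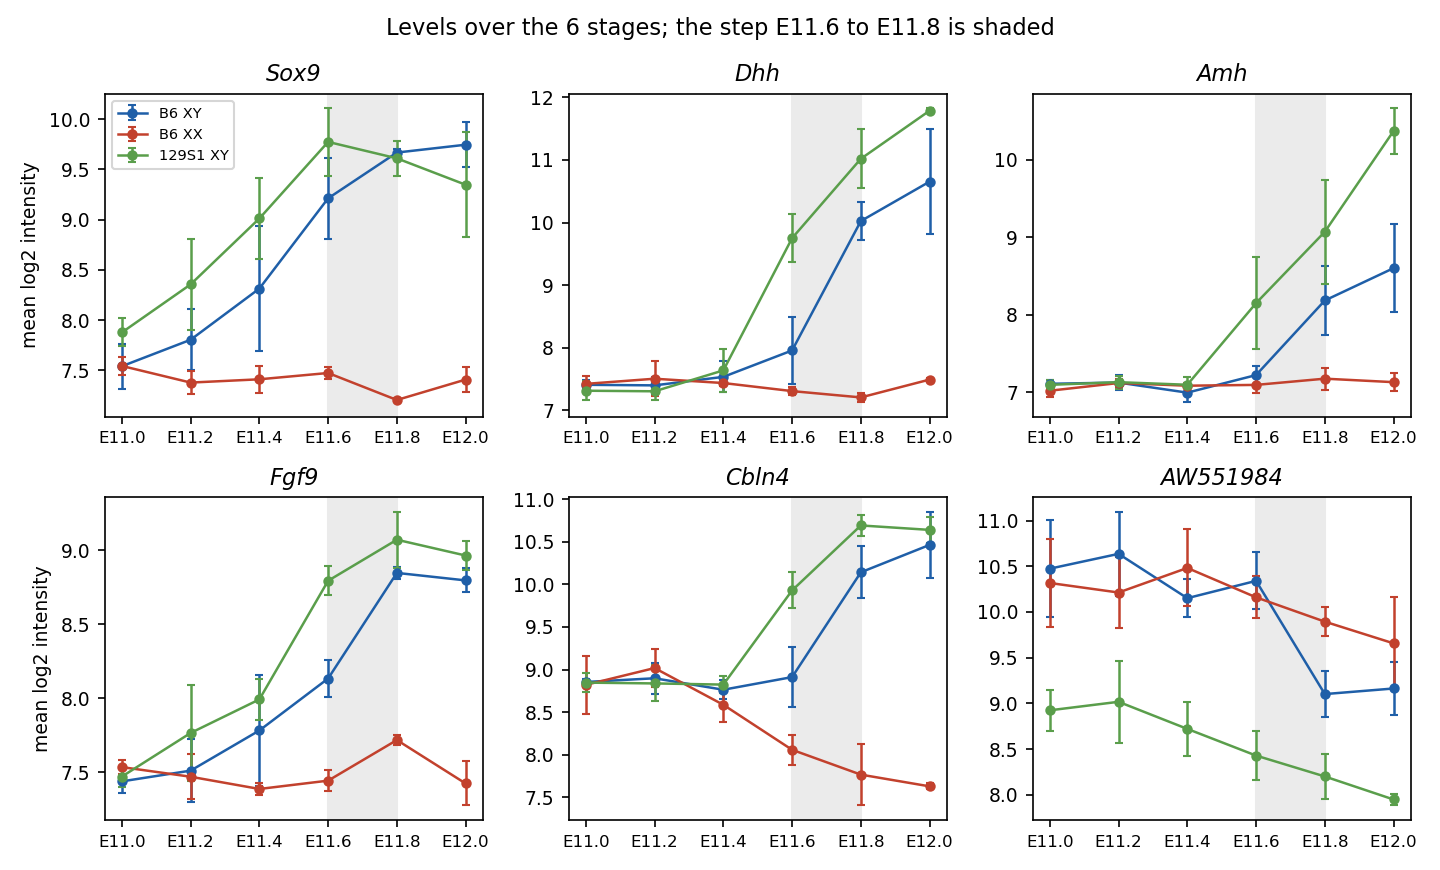
Mean log2 intensity (y axis) of 6 genes at the 6 stages (x axis) in B6 XY (blue), B6 XX (red) and 129S1 XY (green), with SD as error bars and the step shaded. Dhh in B6 XY had a mean of 7.96 at E11.6 and 10.02 at E11.8, while in 129S1 XY it was already at 9.75 at E11.6.

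The same stages of 129S1 XY gonads, 3 arrays each, gave a look at the same genes in other embryos, within the same fit. In 129S1 the step from E11.6 to E11.8 raised 26 probes (0.202% of those tested), and 12 of the 61 probes that rose in B6 were among them, which is 46.2% of the one list and 19.7% of the other. Of the 61, 57 lay above 0 in 129S1 (93.4%, against 49.5% of all kept probes) with a median of 0.44, and in 32 all E11.8 arrays lay above all E11.6 arrays, against 4.02% of all kept probes. The step before it in 129S1, from E11.4 to E11.6, raised 95 probes (0.739% of those tested), and 37 of the 61 were among them, 38.9% of the one list and 60.7% of the other. In that earlier 129S1 step all 61 lay above 0 with a median of 0.64. Relative to E11.0 the median of the 61 in 129S1 XY was 0.20 at E11.4, 0.88 at E11.6, 1.26 at E11.8 and 1.49 at E12.0.

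Dhh had means in 129S1 XY of 7.64 at E11.4, 9.75 at E11.6 and 11.02 at E11.8, against 7.53, 7.96 and 10.02 in B6 XY. For Amh the means were 7.10, 8.15 and 9.07 in 129S1 and 6.998, 7.22 and 8.19 in B6. Cst9 had means at the same 3 stages of 8.93, 11.05 and 11.93 in 129S1 and of 9.07, 9.97 and 11.597 in B6. The direct test of the E11.6 to E11.8 step between the strains called no probe (0%, smallest adjusted p 0.313 in limma, 267 probes at an unadjusted p under 0.05). Nearest to a call were Sema5a, with a step of 0.69 in B6 and -0.31 in 129S1, and, at an adjusted p of 0.347 each, Cited4 (1.16 and -0.22) and Ppp1r3c, a glycogen-targeting subunit of protein phosphatase (0.89 and -0.29). The 6 fallen probes all lay below 0 in 129S1 with a median of -0.17, and none was called.

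Arrays outside the step showed where the risen genes stood later. At E12.0, 304 probes were higher in B6 XY than in B6 XX (2.37% of those tested), and 56 of the 61 were among them, 18.4% of the one list and 91.8% of the other. In 129S1 at E12.0, where XY has 2 arrays, 393 probes were higher in XY (3.06%) and 438 lower (3.41%), and 54 of the 61 were among the higher ones, 13.7% of the one list and 88.5% of the other. Read the other way, the 393 probes were chosen by their 129S1 difference at E12.0. The spread behind that choice came from the fit to all arrays, those of the B6 step included. The brightness filter also drew on every group, so the choice was not wholly apart from the B6 arrays. These probes had a median of 0.28 in the B6 XY step and of 0.00 in the B6 XX step. Of them, 368 lay above 0 in the B6 XY step (93.6%). The 438 lower probes had a median of -0.12 in the B6 XY step with 345 below 0 (78.8%), and none of them was called. Among the 12017 remaining probes 7 rose, 6 fell and the median was -0.00.

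Taken array by array, the 393 probes separated the stages without overlap. Relative to the mean of the E11.6 XY arrays their median was -0.02, -0.00 and 0.02 in the single E11.6 arrays, 0.31, 0.18 and 0.38 at E11.8 and 0.25, 0.37 and 0.39 at E12.0. In the 6 XX arrays it lay between -0.15 and -0.14. The 438 probes lay at 0.00, 0.01 and -0.02 at E11.6 and at -0.15, -0.07 and -0.17 at E11.8, also without overlap. Replicate 2 of E11.8 was the nearest of its group to E11.6 in both sets.

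**Figure D5:**
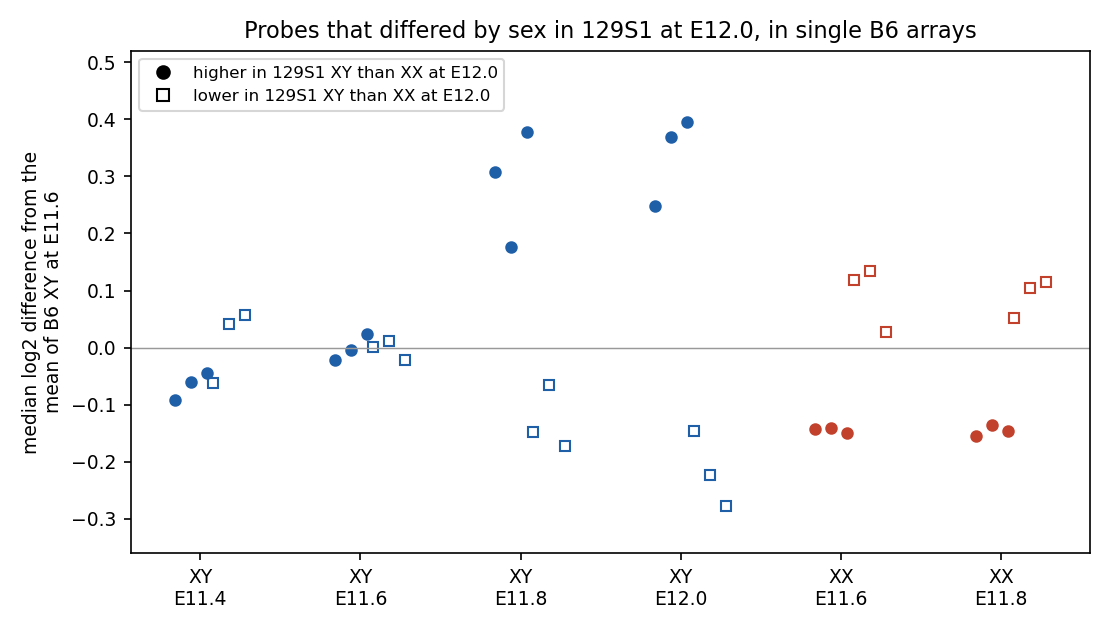
Median log2 difference from the mean of the B6 XY arrays at E11.6 (y axis) in single B6 arrays (x axis: XY blue, XX red), over the 393 probes higher (filled circles) and the 438 probes lower (open squares) in 129S1 XY than XX at E12.0. The circles lie between 0.18 and 0.38 in the E11.8 XY arrays and between -0.02 and 0.02 in those of E11.6.

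How many probes were called rested on single arrays. Without replicate 3 of E11.8 the count of risen probes was 27, without replicate 1 or 2 of E11.6 it was 39 or 37, and without replicate 2 of E11.8 it was 75, while without replicate 3 of E11.6, the XY array that stood apart, it was 63 and without replicate 1 of E11.8 it was 50. Of the 61 risen probes 23 were called in all 6 of these fits, and every other one lost its call in at least 1 of them.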

How the data were processed

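Gonad pairs of individual wild-type embryos were hybridised by the authors to Illumina mouse bead arrays, and the deposited values are log2 intensities that the authors quantile normalised with the R package beadarray (R 2.12.0 per the labels). The table of raw intensities, with 148 value columns named by chip and position, could not be paired with samples and was not used, so neither the methods' detection filter nor the chip as a batch was applied. The brightest 50% of 25697 probes were kept (12848), each ranked by the second brightest array of its best group. Among kept probes the lowest value used for this ranking was 7.59. Of all probes 23978 had 1 gene symbol and 1719 none, and 23962 were matched to the annotation. Limma 3.58.1 in R 4.3.3 was fitted to 74 arrays with 24 group means of sex, strain and stage, without a block, and Benjamini-Hochberg adjustment over all kept probes.

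Genes named were the 12 largest called rises and falls, the 10 largest called sex differences, up to 4 genes of each of 25 lists with the smallest p in the XY step, genes named in the study and sex-linked controls; others are stated as picked later. For list counts, the kept probe with the highest mean stands for its gene. The genes and lists were chosen with earlier results of these data known. Alternatives were other filters, samples, weights, priors, normalisations, a replicate block and left-out arrays; those of the neighbouring steps, and the tests against them, were added after the data had been seen. Figures were drawn with matplotlib 3.10.9.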

Additional observations from a re-analysis of the deposited data

Results flagged for a closer look

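A total of 21 probes moved differently in XY and XX gonads of B6 between E11.6 and E11.8, by a direct test of the XY step minus the XX step (limma, adjusted p under 0.05). The differences on the log2 scale were 2.17 for Dhh, 1.85 for Cst9, 1.60 for Mmd2, 1.52 for Cbln4, 1.52 for Cbln1, 1.46 for Chst1, 1.26 for Tesc, 1.23 for Espn, 1.13 for Gdnf, 1.12 for Gldn and 1.12 for Adamts16. Those of Islr2, Diras2, Dusp15, Cdo1 and Slc6a8 were 1.04, 1.01, 1.00, 0.98 and 0.87. Rcan1 differed by 0.80, in the dimmer of its called probes, Atn1 by 0.76 and Nkd2 by 0.75. Below 0 were Mvd at -1.16 and Fdps at -1.36, both of cholesterol synthesis.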

How the results depend on the processing

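No called value of the 128 named probes changed sign under the alternatives run, of which a stricter brightness filter kept only 90 of them. For probes called in the step, their choice by that step makes this likely. Fitted on the 6 B6 XY arrays alone the risen probes numbered 30, of which 29 were among the 61, and with array quality weights 144, of which 61 were; the fallen numbered 11 in a fit of the 12 B6 arrays and 50 with weights. The XX step, with no call as reported, had 18 probes up and 11 down with weights and 1 down in the fit of 12 arrays. The sex difference had 7 probes above 0 in the fit of 12 arrays and 274 with weights, and below 0 it had 1 over all probes and 287 with weights. The strain difference had 1 probe below 0 with weights, and the neighbouring steps had 4 above and 15 below 0 before and 1 above after, a choice made after seeing the data. The cause of these shifts was not tested; weights gave replicate 3 of E11.6 a weight of 0.57 and replicate 2 one of 2.40. Leaving out 1 array at a time gave 27 to 75 risen and 0 to 11 fallen probes, 0 to 1 risen in XX, 7 to 29 above and 0 to 8 below 0 for the sex difference, and 0 to 5 above 0 for the step before and 0 to 3 for the step after. The replicate numbers did not pair the arrays (correlations of same-numbered arrays 0.22, -0.45 and -0.27 in XY, with none closest to its own number). With the replicate block 69 probes rose and 7 fell, and the sex difference had 25 above and 3 below 0. Of 374 list medians 369 moved by less than the median standard error of the list's genes.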
